A study of Mus musculus with 28 samples.

Results

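Notch signalling passes information between cells that touch, and 10 of its genes were followed through the development of mouse peripheral nerve. They were 2 receptors (Notch1, Notch2), 3 ligands (Jag1, Jag2, Dll1) and 5 genes of the Hes and Hey families that Notch switches on (Hes1, Hes5, Hey1, Hey2, Heyl). They were chosen by name out of 41605 genes in the count table, all 10 had an entry, and all 10 were among the 17700 genes that passed the filter on low counts. Bulk poly-A RNA sequencing covered 7 stages with 4 libraries each, which gave 28 libraries. All mice were wild-type C57BL/6J and were not perfused. The first stage, labelled E13 and described as E13.5, was various peripheral nerves beyond the dorsal root ganglia, pooled from 2 embryos for each library and not stripped. The second, labelled E17 and described as E17.5, was sciatic nerve pooled from 2 embryos. The postnatal stages P1, P5, P14, P24 and P60 were sciatic nerve of 1 mouse for each library, and from E17 onwards the outer sheaths were peeled off by hand. Each stage held 2 samples from males and 2 from females, but the sex of a single library was not used here.

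In canonical Notch signalling a ligand of the Delta or Jagged family on one cell binds a Notch receptor on its neighbour. ADAM proteases and then gamma-secretase cut the receptor, and its intracellular part moves to the nucleus, where it binds RBPJ and Mastermind proteins and turns on Hes and Hey genes, which encode basic helix-loop-helix repressors. In the Schwann cell lineage Notch is known for promoting the step from precursor to immature Schwann cell, for driving division and for holding back myelination, and in blood vessels it is known for arterial identity and for the smooth muscle coat.

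Levels are CPM, the counts of a gene scaled to its library's TMM-adjusted size, and a level compared between genes is divided by exon length and given as CPM per kb. Changes are log2 fold changes ± SE of the later stage against the earlier one from the edgeR quasi-likelihood test. A gene was called, and is said to rise or fall, when it differed at least 2-fold with an adjusted p, over the 17700 genes tested, below 0.05. Total counts per library were 13899895 to 37662780. Over 10028 genes, E13 replicate 1 (slope -0.93), E13 replicate 4 (0.73) and P1 replicate 1 (-0.43) had the steepest trends of log2 CPM against GC content per 10 percentage points, and the other libraries lay between -0.16 and 0.20. A fit without these 3 libraries, chosen after their slopes were seen, is given beside the counts of genes called in the comparisons that used them. E13 differed from the later stages in nerve and stripping as well as in age, and pooling of embryos ended between E17 and P1, so these cannot be told apart from age at those steps. In RNA from whole tissue, fewer cells of a type and less RNA per cell cannot be told apart either.

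All 10 genes changed along the timeline (test of all stage terms together, adjusted p of 2.8e-06 or less, with stage means at least 1 apart on the log2 scale), against a background of 70.3% of all genes tested. By adjusted p alone the background was 88.8%. All 10 also changed without the 3 libraries of steepest GC trend. The widest span among the 9 genes other than Hes5 was that of Hey2, whose highest stage mean was 112 times its lowest (270.3 times without P1 replicate 3), and the narrowest were those of Hey1 and Notch1, at 2.88 and 2.91 times. Dll1, Hes5, Hey2, Heyl and Jag1 had their highest mean at E13, Notch1, Hes1 and Hey1 at E17, and Notch2 and Jag2 at P60. The lowest mean was at P1 for Jag2, Dll1, Hes5, Hey2 and Heyl.

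**Figure D1:**
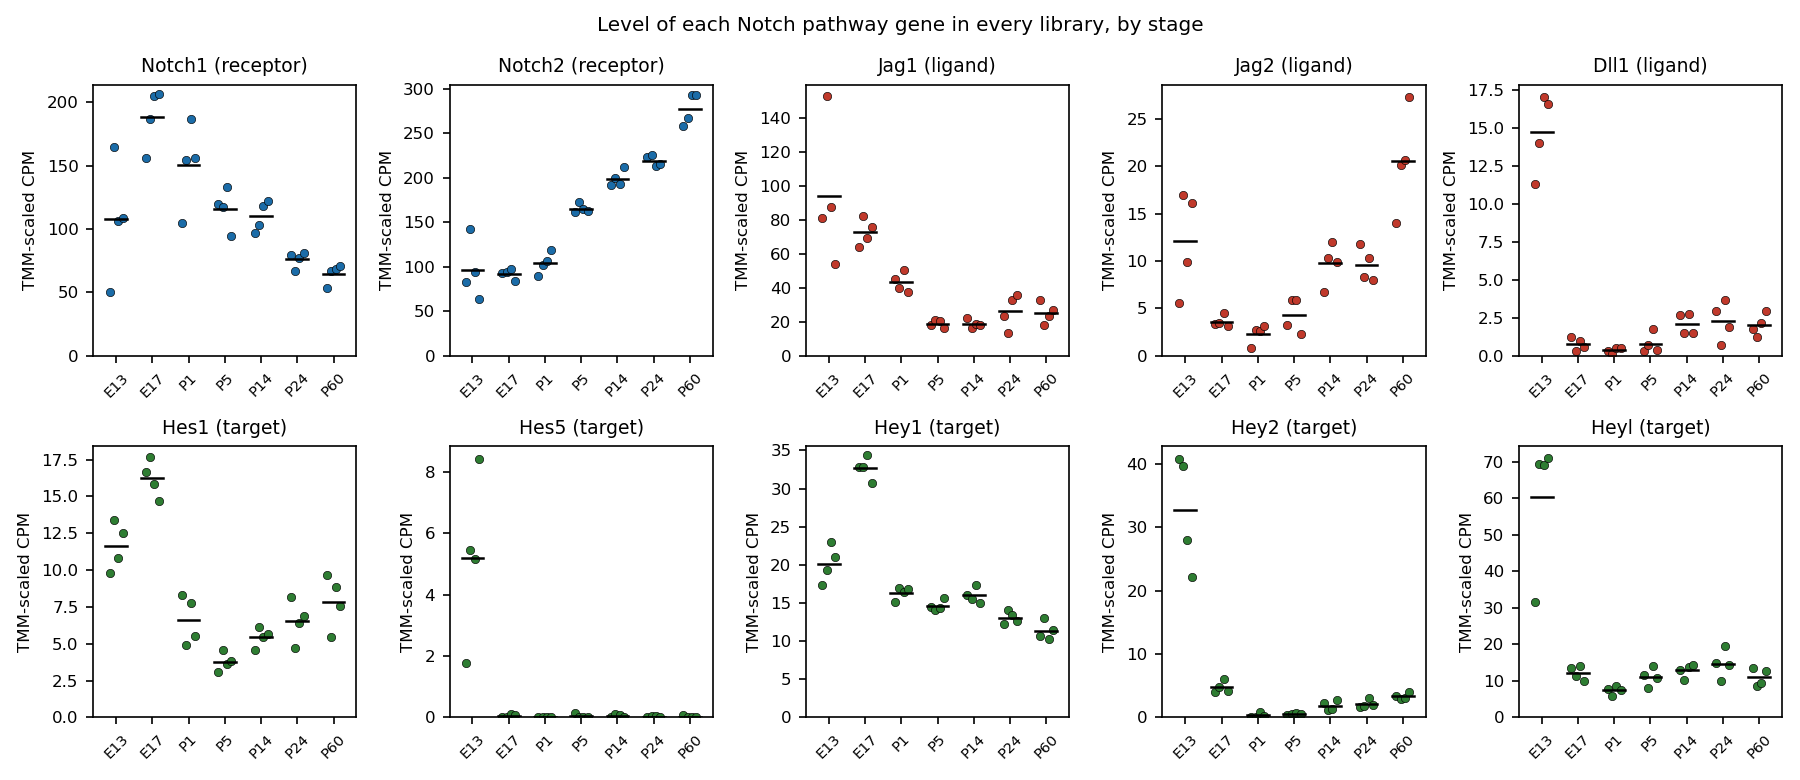
Level of the 10 Notch pathway genes in each of the 28 libraries (TMM-scaled CPM, linear axes from 0) against stage, with points for libraries and a bar for the mean of 4. The Notch1 mean is 188 CPM at E17 and 64.8 CPM at P60, the Notch2 mean is 92.3 and 278 CPM at the same stages, and Dll1, Hes5, Hey2 and Heyl stand highest at E13.

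Notch1 (ENSMUSG00000026923, chr2:26457903-26516663, minus strand) encodes the receptor best known in cell fate decisions. At E13 its 4 libraries had 50.6, 165, 106 and 109 CPM, 156, 187, 205 and 206 CPM at E17 and 105, 154, 186 and 156 CPM at P1. Notch1 then stood at 119.7, 117, 133 and 94.3 CPM at P5 and 96.9, 103, 118 and 122 CPM at P14. It measured 79.5, 67.2, 77.3 and 81 CPM at P24 and 53.2, 66.8, 68.3 and 71.1 CPM at P60. E17 was the highest stage at 188 ± 23.2 CPM (SD, n = 4) and P60 the lowest at 64.8 ± 7.96 CPM, yet in the order of stage means every neighbouring pair overlapped. No adjacent step was called. E17 against E13 came closest, at 0.81 ± 0.21 (adjusted p = 0.0018, 1.75-fold), and over libraries left out it ran from 0.57 without E13 replicate 1 to 1.06 (adjusted p = 6.2e-05) without E13 replicate 2, where it was called. Without the 3 libraries of steepest GC trend it was 0.49 (adjusted p = 0.008). The later steps were -0.33 ± 0.21 for P1 against E17 (adjusted p = 0.27), -0.37 ± 0.21 for P5 against P1 (adjusted p = 0.25), -0.07 ± 0.21 for P14 against P5 (adjusted p = 0.84), -0.53 ± 0.21 for P24 against P14 (adjusted p = 0.18) and -0.23 ± 0.21 for P60 against P24 (adjusted p = 0.54). Over the postnatal period Notch1 fell by 1.21 ± 0.22 on the log2 scale from P1 to P60 (adjusted p = 2.2e-05), and the 4 and 4 libraries did not overlap. On the opposite strand, 0610009E02Rik and Gm13568 share exon bases with Notch1 and had 463 and 92 counts in all against 74623 for Notch1.

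Notch2 (ENSMUSG00000027878, chr3:98013527-98150361, plus strand) encodes a second receptor of the same build. Its libraries held 83.2, 142, 94.4 and 63.9 CPM at E13, 93.2, 94.2, 97.9 and 83.8 CPM at E17 and 90.1, 102, 106 and 118 CPM at P1. Notch2 then stood at 162, 172, 165 and 163 CPM at P5 and 192, 199, 193 and 212 CPM at P14. It measured 223, 225, 213 and 216 CPM at P24 and 258, 266, 293 and 293 CPM at P60. From P1 on, every later stage stood above the one before it with no overlap between their libraries. The step from P1 to P5 was 0.66 ± 0.14 (adjusted p = 0.0012, 1.58-fold), which is under the 2-fold minimum, and the later steps of 0.27 ± 0.14, 0.14 ± 0.14 and 0.34 ± 0.14 had adjusted p of 0.17, 0.74 and 0.11. The earlier steps were -0.06 ± 0.14 for E17 against E13 (adjusted p = 0.75) and 0.18 ± 0.14 for P1 against E17 (adjusted p = 0.38). Without the 3 libraries of steepest GC trend, E17 against E13 was -0.35 (adjusted p = 0.0024), still under 2-fold. Taken from P1 to P60, Notch2 rose by 1.41 ± 0.14 (2.66-fold, adjusted p = 2.6e-09), from 104 ± 11.7 to 278 ± 18.1 CPM. A transcript of unknown coding status, Gm42820, shares 541 exon bases with Notch2 on the same strand, and reads there cannot be told apart.

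Per exon length Notch1 was the higher of the 2 receptors at E17 and Notch2 from P5 onwards. The log2 ratio of Notch2 to Notch1 within a library had a mean of -0.62 at E17, with Notch1 the higher in 4 of 4 libraries, and of -0.10 at P1, where the libraries lay on both sides of 0. With the longest transcript as the length the P1 mean was -0.65, with Notch1 the higher in 4 of 4 libraries, while from P5 onwards Notch2 was still the higher in 4 of 4 at each stage. At P5 it was 0.92, at P14 1.26, at P24 1.93 and at P60 2.51 (range 2.40 to 2.68), with Notch2 the higher in 4 of 4 libraries at each. At E13 the mean was 0.29 over a range of -0.37 to 1.12, with E13 replicate 1 the highest, and with the longest transcript as the length it was -0.25. Among all 4 Notch receptors, Notch1 held 50.1 ± 4.32% of the summed CPM per kb at E17 and 11.9 ± 0.66% at P60, and Notch2 held 32.5 ± 2.40% and 67.2 ± 2.02%. With the longest transcript as the length, Notch1 held 59.1% and 16.3% at these stages and Notch2 26.3% and 63.3%. The other receptors, named here to complete the family after their values were seen, were Notch3, at 27.7% at E13, 12.3% at E17 and 15.7% at P60, and Notch4, at 4.98% and 5.25%.

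**Figure D2:**
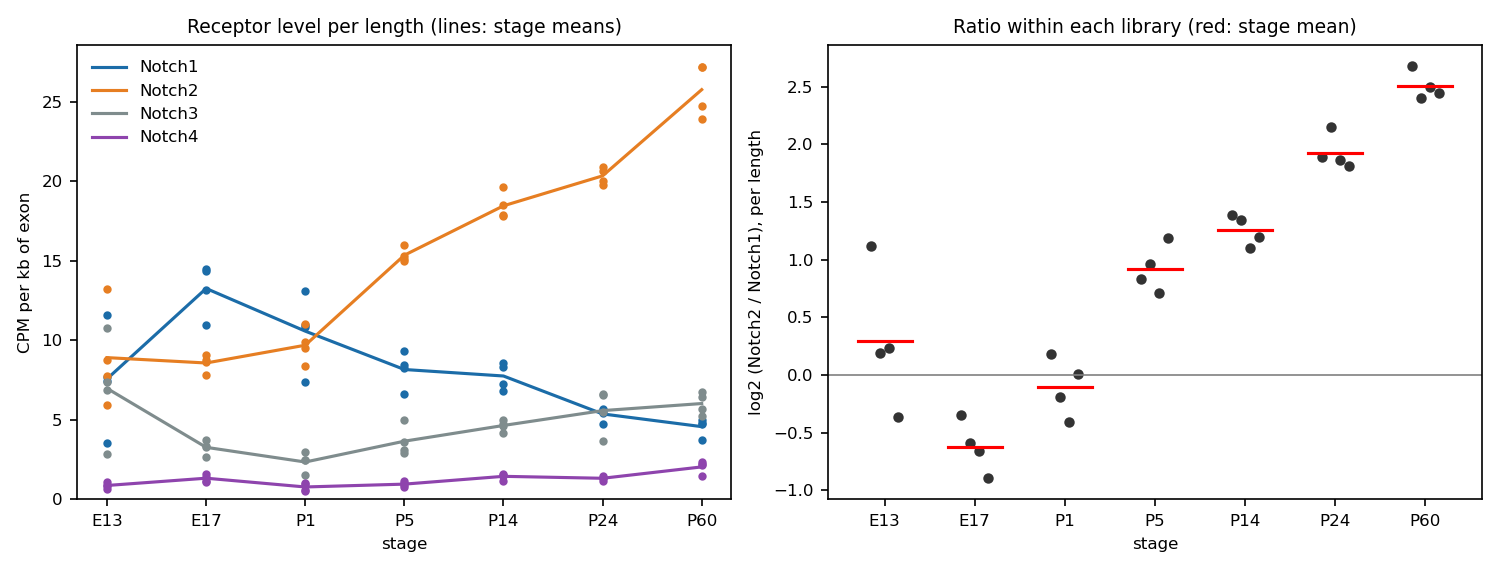
Left, CPM per kb of exon for the 4 Notch receptors by stage, with points for libraries and lines through stage means. Right, log2 ratio of Notch2 to Notch1 per length in each library (red bars, stage means), which lies under 0 in all 4 libraries at E17 and above 0 in all 16 libraries from P5 to P60.

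Jag1 (ENSMUSG00000027276, chr2:137081456-137116644, minus strand) encodes a ligand of the Jagged family. Jag1 stood at 81.3, 153, 87.5 and 53.7 CPM at E13, 64.2, 82.3, 69.1 and 75.7 CPM at E17 and 45.5, 39.7, 50.4 and 37.6 CPM at P1. Jag1 then stood at 18.1, 21.3, 20.5 and 16.1 CPM at P5 and 22.5, 16.5, 18.8 and 17.9 CPM at P14. It measured 23.7, 13.2, 33 and 35.8 CPM at P24 and 32.7, 18.3, 23.7 and 27.1 CPM at P60. Its E13 libraries were spread over a wide range that took in the E17 libraries, and from E17 to P5 each stage lay under the one before with no overlap. P1 against E17 was -0.75 ± 0.25 (adjusted p = 0.023, 1.68-fold), short of the 2-fold minimum, and from P1 to P5 Jag1 fell by 1.19 ± 0.25 on the log2 scale (adjusted p = 0.0012). From P5 on no step was called. The differences not called were -0.37 ± 0.25 for E17 against E13 (adjusted p = 0.2), -0.01 ± 0.25 for P14 against P5 (adjusted p = 1), 0.48 ± 0.25 for P24 against P14 (adjusted p = 0.36) and -0.06 ± 0.25 for P60 against P24 (adjusted p = 0.93). At P60 it stood at 25.4 ± 6.03 CPM against 43.3 ± 5.76 CPM at P1, a difference of -0.77 ± 0.25 (adjusted p = 0.01, 1.70-fold).

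Jag2 (ENSMUSG00000002799, chr12:112907819-112929776, minus strand) encodes the other Jagged ligand. Jag2 measured 5.53, 16.9, 9.93 and 16.2 CPM at E13, 3.35, 3.43, 4.50 and 3.14 CPM at E17 and 0.875, 2.71, 2.63 and 3.13 CPM at P1. Jag2 then stood at 3.25, 5.90, 5.90 and 2.35 CPM at P5 and 6.70, 10.3, 12 and 9.95 CPM at P14. It measured 11.8, 8.37, 10.3 and 8.05 CPM at P24 and 14, 20.2, 20.6 and 27.3 CPM at P60. The gene was high in E13, low from E17 to P5 and high again in the adult. P5 against P1 was 0.90 ± 0.35 (adjusted p = 0.079), and 1.10 (adjusted p = 0.035) without P5 replicate 4. It fell by 1.74 ± 0.35 on the log2 scale from E13 to E17 (adjusted p = 9.7e-05). It rose by 1.16 ± 0.34 from P5 to P14 (adjusted p = 0.0096) and by 1.10 ± 0.33 from P24 to P60 (adjusted p = 0.022), with no overlap at either step. The P5 to P14 value was 0.96 (adjusted p = 0.046) without P5 replicate 4 and 0.98 with library size only, both under 2-fold. The P24 to P60 call was lost without P24 replicate 2 (adjusted p = 0.064), P24 replicate 4 (0.069) or P60 replicate 4 (0.088). Jag2 also gave -0.63 ± 0.36 for P1 against E17 (adjusted p = 0.2) and -0.03 ± 0.33 for P24 against P14 (adjusted p = 1). Across the whole postnatal period the rise was 3.13 ± 0.36 (8.77-fold, adjusted p = 2.2e-08).

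Dll1 (ENSMUSG00000014773, chr17:15367354-15376872, minus strand) encodes a Delta ligand, known for its part in the upkeep of neural progenitors. Dll1 reached 11.3, 14, 17 and 16.6 CPM at E13, 1.26, 0.317, 0.970 and 0.566 CPM at E17 and 0.328, 0.125, 0.510 and 0.527 CPM at P1. Dll1 then stood at 0.333, 0.745, 1.75 and 0.367 CPM at P5 and 2.66, 1.53, 2.74 and 1.48 CPM at P14. It measured 2.92, 0.732, 3.65 and 1.92 CPM at P24 and 1.75, 1.23, 2.18 and 2.95 CPM at P60. All 4 E13 libraries stood above all 24 later ones, and from E17 to P5 most libraries were under 1 CPM. Dll1 fell by 4.21 ± 0.49 on the log2 scale from E13 to E17 (18.5-fold, adjusted p = 2.7e-08). From P5 to P14 it rose by 1.41 ± 0.47 (adjusted p = 0.024) although the libraries overlapped. That call was lost in 5 of the 8 refits that left out 1 library (P5 replicate 1, 2 or 4, P14 replicate 1 or 3), with adjusted p of 0.059 to 0.091, and without P5 replicate 3 the rise was 2.07. The remaining steps of Dll1 were -1.04 ± 0.55 for P1 against E17 (adjusted p = 0.16), 1.04 ± 0.53 for P5 against P1 (adjusted p = 0.2), 0.12 ± 0.44 for P24 against P14 (adjusted p = 0.96) and -0.16 ± 0.46 for P60 against P24 (adjusted p = 0.88). P60 stood above P1 by 2.41 ± 0.52 (5.30-fold, adjusted p = 0.00024), with no overlap. The lincRNA A930024N18Rik shares 867 exon bases with Dll1 on the opposite strand and had 258 counts in all against 2148 for Dll1.

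Set per length against all 5 Delta and Jagged ligands, Jag1 held 82.7 ± 2.05% of the summed CPM per kb at E17, 40.1 ± 5.80% at P14 and 43.5 ± 9.17% at P60. Jag2 held 3.45 ± 0.68% at E17 and 29.5 ± 7.01% at P60, and Dll1 held 14.6 ± 3.96% at E13, 1.27 ± 0.78% at E17 and 4.73 ± 1.34% at P60. With the longest transcript as the length, Jag1 held 81.7% at E17 and 39.8% at P60, and Jag2 held 4.49% and 35.2%. The ligands as a group summed to 25.1 ± 7.08 CPM per kb at E13, 15.1 ± 1.31 at E17, 6.11 ± 0.90 at P5 and 9.99 ± 0.90 at P60. The remaining ligands, Dll3 and Dll4, were named to complete the family after their values were seen, and Dll4, a ligand of the blood vessel lining, held 12.4% at E17, 36.4% at P14 and 22.1% at P60.

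Hes1 (ENSMUSG00000022528, chr16:30064384-30067796, plus strand) encodes a repressor that is a direct target of Notch in many tissues. Per library, Hes1 gave 9.80, 13.4, 10.8 and 12.5 CPM at E13, 16.7, 17.7, 15.8 and 14.7 CPM at E17 and 8.31, 4.91, 7.73 and 5.52 CPM at P1. Hes1 then stood at 3.08, 4.58, 3.64 and 3.82 CPM at P5 and 4.55, 6.10, 5.43 and 5.66 CPM at P14. It measured 8.20, 4.71, 6.42 and 6.88 CPM at P24 and 9.65, 5.44, 8.83 and 7.53 CPM at P60. E17 was the highest stage and did not overlap with any other. The step from E13 to E17 was 0.48 ± 0.19 (adjusted p = 0.028, 1.39-fold), under the 2-fold minimum. From E17 to P1 Hes1 fell by 1.29 ± 0.19 on the log2 scale (adjusted p = 6.4e-06). P5 against P1 was -0.80 ± 0.19 (adjusted p = 0.0038), P14 against P5 was 0.52 ± 0.20 (adjusted p = 0.046), and P60 against P1 was 0.25 ± 0.19 (adjusted p = 0.27), none of them at 2-fold. The last steps were 0.26 ± 0.19 for P24 against P14 (adjusted p = 0.59) and 0.27 ± 0.19 for P60 against P24 (adjusted p = 0.41).

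Hey1 (ENSMUSG00000040289, chr3:8663359-8667256, minus strand) encodes a repressor related to the Hes proteins. The Hey1 values were 17.3, 19.3, 22.9 and 21.1 CPM at E13, 32.8, 32.9, 34.4 and 30.7 CPM at E17 and 15.1, 16.9, 16.4 and 16.8 CPM at P1. Hey1 then stood at 14.5, 14, 14.4 and 15.6 CPM at P5 and 16.1, 15.5, 17.3 and 15 CPM at P14. It measured 12.3, 14, 13.4 and 12.6 CPM at P24 and 10.7, 13.1, 10.3 and 11.5 CPM at P60. The spread within a stage was small, and E17 stood above all other stages. Hey1 was 0.70 ± 0.10 higher at E17 than at E13 (adjusted p = 8.6e-07, 1.62-fold), and it fell by 1.01 ± 0.10 on the log2 scale from E17 to P1 (adjusted p = 8.6e-09). That fall lies at the 2-fold limit, and the value was -0.98 without E17 replicate 3, without P1 replicate 1 or without the 3 libraries of steepest GC trend, and -0.999 without P1 replicate 3, each just under it. It was also missed with limma-voom (-0.98), with no filter on low counts (-0.96) and on the compared stages alone (-0.97). After P1 the steps were -0.15 ± 0.10 for P5 against P1 (adjusted p = 0.33), 0.13 ± 0.10 for P14 against P5 (adjusted p = 0.37), -0.29 ± 0.10 for P24 against P14 (adjusted p = 0.11) and -0.20 ± 0.10 for P60 against P24 (adjusted p = 0.2). P60 against P1 was -0.52 ± 0.10 (adjusted p = 7.9e-05, 1.43-fold), with no overlap between the libraries.

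Heyl (ENSMUSG00000032744, chr4:123233556-123249875, plus strand) encodes another Hey protein. Heyl libraries ranged through 31.5, 69.3, 69 and 71 CPM at E13, 13.4, 11.3, 14.1 and 9.86 CPM at E17 and 7.76, 5.83, 8.53 and 7.35 CPM at P1. Heyl then stood at 11.6, 8.14, 14.1 and 10.8 CPM at P5 and 13, 10.2, 13.8 and 14.4 CPM at P14. It measured 14.7, 9.83, 19.6 and 14.3 CPM at P24 and 13.4, 8.71, 9.45 and 12.8 CPM at P60. E13 was higher than all later stages, with E13 replicate 1 at 31.5 CPM far from the other 3. Heyl fell by 2.30 ± 0.23 on the log2 scale from E13 to E17 (4.94-fold, adjusted p = 2.7e-09), and the fall was 2.53 without E13 replicate 1. P1 against E17 was -0.72 ± 0.23 (adjusted p = 0.018) and P60 against P1 was 0.59 ± 0.23 (adjusted p = 0.031), both under 2-fold. Heyl differed by 0.59 ± 0.23 for P5 against P1 (adjusted p = 0.076), 0.21 ± 0.23 for P14 against P5 (adjusted p = 0.53), 0.18 ± 0.23 for P24 against P14 (adjusted p = 0.81) and -0.40 ± 0.23 for P60 against P24 (adjusted p = 0.28).

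Hey2 (ENSMUSG00000019789, chr10:30832359-30842801, minus strand) encodes a Hey protein known from arteries and the heart. For Hey2 the libraries read 40.8, 39.7, 28 and 22.2 CPM at E13, 3.96, 4.75, 6.09 and 4.08 CPM at E17 and 0.0729, 0.0416, 0.802 and 0.248 CPM at P1. Hey2 then stood at 0.375, 0.573, 0.685 and 0.477 CPM at P5 and 2.20, 1.13, 1.31 and 2.70 CPM at P14. It measured 1.66, 1.73, 3.01 and 1.96 CPM at P24 and 3.36, 2.90, 3.05 and 4.02 CPM at P60. E13 stood far above the rest, and the P1 libraries held only 1 to 22 counts each. Hey2 fell by 2.78 ± 0.34 on the log2 scale from E13 to E17 (adjusted p = 8.1e-08) and by a further 3.98 ± 0.43 from E17 to P1 (adjusted p = 4.3e-08). Without P1 replicate 3, the library with 22 counts, the second fall was 5.13. P5 against P1 was 0.83 ± 0.50 (adjusted p = 0.29), and 1.98 (adjusted p = 0.0063) without P1 replicate 3. From P5 to P14 Hey2 rose by 1.80 ± 0.41 (3.47-fold, adjusted p = 0.0014) with no overlap. The steps after P14 were 0.19 ± 0.37 for P24 against P14 (adjusted p = 0.91) and 0.66 ± 0.37 for P60 against P24 (adjusted p = 0.25). P60 stood 3.47 ± 0.44 above P1 (11.1-fold, adjusted p = 1.3e-07), or 4.64 without P1 replicate 3. Its P60 level was 3.33 ± 0.50 CPM and its E13 level 32.7 ± 9.08 CPM.

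Hes5 (ENSMUSG00000048001, chr4:154960923-154962371, plus strand) encodes a repressor that is a classical Notch target in neural progenitors. The E13 libraries had 1.76, 5.45, 5.16 and 8.42 CPM, from 53, 135, 143 and 160 counts. In the 24 later libraries Hes5 had 14 counts in all, 16 libraries had none, and the highest count was 3. Its summed level at E13 was 95.1 times that at E17 (95% counting interval 36.9 to 350), where 2 libraries held the 4 counts. Without E17 replicate 3, which held 3 of them, the ratio was 256 (interval 45.7 to 10134). Hes5 was called lower at E17 (adjusted p = 1.3e-07). Against P1, where all libraries were at 0, E13 was at least 41.6-fold higher, taking 3 counts in the shallowest P1 library as the floor. Interval and floor cover counting error only. At this depth no change after E17 was detectable, with adjusted p of 0.13, 0.3, 0.76, 0.91 and 0.91 for the steps in order and 0.33 for P60 against P1.

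The promoters of Hes5 and Hey2 are shown because both genes fell from E13 to E17 and because among the 7 members with an entry in the RefSeq promoter table (build GRCm38.p6) these were the ones whose bases before the start held the core letters that RBPJ binds, TGGGAA on either strand. Jag2 and Dll1, which also fell at that step, had entries without these letters, and Hes1, Hey1 and Heyl had no entry. Hes5 is given for chr4:154960673-154960922 (plus strand) and Hey2 for chr10:30842802-30843033 (minus strand), both written 5′ to 3′, with the matches in capitals (TGGGAA, or TTCCCA where it lies on the other strand). The Hey2 stretch stops at the gene's outermost annotated start, a few bases ahead of the RefSeq start from which distances are counted.
Hes5: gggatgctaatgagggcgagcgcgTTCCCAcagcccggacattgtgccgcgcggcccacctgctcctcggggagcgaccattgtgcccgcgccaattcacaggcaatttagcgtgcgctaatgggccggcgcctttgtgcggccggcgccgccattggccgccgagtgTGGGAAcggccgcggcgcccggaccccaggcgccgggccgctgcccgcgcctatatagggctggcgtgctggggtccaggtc
Hey2: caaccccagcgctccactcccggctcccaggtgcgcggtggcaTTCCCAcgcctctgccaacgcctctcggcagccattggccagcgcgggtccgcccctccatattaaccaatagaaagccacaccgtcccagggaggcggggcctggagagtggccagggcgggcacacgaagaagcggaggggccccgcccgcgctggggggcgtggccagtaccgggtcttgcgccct
The Hes5 matches begin 226 and 82 bases before the start and the Hey2 match 207 bases before it. Of 32851 promoters, 21.6% hold TGGGAA on either strand in the 250 bases before the start, and 2 of the 7 members with an entry do. The letters CACNAG, the N-box of Hes proteins, searched on both strands, occur in 36.7% of promoters and in 2 of the 7 members with an entry, Notch1 and Notch2, beginning 108 and 247 bases before the start. A match is a run of letters and was not tested as a binding site.

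From E13 to E17, 5 of the 10 genes fell (Jag2, Dll1, Hes5, Hey2, Heyl) and none rose. The background was 35.5% of all genes called, with 21.2% lower and 14.2% higher. By adjusted p alone 8 of the 10 passed, against 62.2% of all genes. The median log2 change was -0.37 over the 9 genes other than Hes5 and -0.08 over all genes. The middle gene was Jag1, and its value was -0.051 without E13 replicate 2 and -0.71 without the 3 libraries of steepest GC trend. Without the 3 libraries of steepest GC trend 5 genes were called as well, with values of -1.87 for Jag2, -4.28 for Dll1, -2.82 for Hey2 and -2.50 for Heyl. Genes of nerve cell bodies moved with this step: 8 of 8 listed markers were lower at E17, and their summed level went from 1527 to 2737 CPM at E13 to 33.1 to 51.1 CPM at E17. All 5 markers of neuron progenitors were lower as well (268 to 1128 CPM against 2.75 to 5.43 CPM), with Neurog1, Neurog2 and Neurod1 at 0 at E17. Of the arterial endothelial markers 3 of 5 were lower (64.8 to 101 CPM against 34.1 to 40.2 CPM), and 5 of 5 skeletal muscle markers tested were lower (45.3 to 806 CPM against 3.75 to 20.6 CPM). Blood and macrophage markers were lower in 5 of 5 each and cartilage markers in 2 of 3. Higher at E17 were 6 of 6 Schwann lineage, 4 of 5 myelinating, 3 of 3 immature Schwann, 4 of 6 fibroblast, 3 of 8 endothelial and 4 of 4 proliferation markers, and the perineurial and the pericyte and smooth muscle lists held calls both ways. Their part in the fall of the 5 Notch genes was not tested.

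From E17 to P1, 3 of the 10 fell (Hes1, Hey1, Hey2) and none rose, against 11.7% of all genes called, 5.41% lower and 6.31% higher. By adjusted p alone 5 passed, against 29.5%. The 3 that fell are target genes, and no receptor or ligand met both limits of a call. The ligand Jag1 passed by adjusted p but not by fold (-0.75, adjusted p = 0.023). The ligand Dll1 had a larger estimate than Hey1 but did not pass by adjusted p (-1.04 against -1.01, adjusted p = 0.16 for Dll1). The 3 markers of immature Schwann cells fell at the same step (1447 to 1596 CPM against 569 to 679 CPM), 1 of 8 endothelial markers was lower (339 to 401 CPM against 196 to 225 CPM), and 1 of 5 arterial markers was higher. All 5 myelinating markers were higher (2516 to 2885 CPM against 13636 to 25356 CPM). Lower were 4 of 5 blood, 3 of 5 skeletal muscle, 3 of 8 nerve cell body (with 1 higher), 2 of 5 neuron progenitor, 2 of 4 perineurial and 1 of 4 proliferation markers, and the Schwann lineage and the pericyte and smooth muscle lists held 1 higher marker each. Without the 3 libraries of steepest GC trend 2 of the 10 were called, Hes1 (-1.43) and Hey2 (-3.67). From P1 to P5, 1 of the 10 fell (Jag1), against 5.84% of all genes called, 1.79% lower and 4.05% higher, and the Jag1 value was -1.15 without those libraries. By adjusted p alone 3 passed, against 17.6%. There, 3 of 5 arterial, 4 of 8 pericyte and smooth muscle, 3 of 5 myelinating, 2 of 5 macrophage, 1 of 6 fibroblast and 1 of 6 Schwann lineage markers were higher, and 1 of 5 blood markers was lower. The 3 immature Schwann and 4 proliferation markers passed by adjusted p without a call. Their sums were lower with no overlap (569 to 679 against 406 to 437 CPM and 972 to 1354 against 525 to 654 CPM). The endothelial, arterial, pericyte and smooth muscle, myelinating, macrophage and Schwann lineage sums were higher with no overlap. The part of these cell types in the changes was not tested.

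From P5 to P14, 3 of the 10 rose (Jag2, Dll1, Hey2), against 12% of all genes called, 7.11% higher and 4.91% lower. By adjusted p alone 4 passed, against 29.6%. Of the vessel lists, 1 of 8 endothelial, 2 of 5 arterial and 2 of 8 pericyte and smooth muscle markers rose, and the summed arterial level was 31.2 to 43.9 CPM at P5 and 37.4 to 46.8 CPM at P14. The summed endothelial level (271 to 315 against 356 to 441 CPM) and that of pericytes and smooth muscle (414 to 542 against 681 to 794 CPM) were higher at P14 with no overlap. Of the other lists, 2 of 4 perineurial (176 to 222 against 455 to 561 CPM) and 2 of 6 fibroblast markers were higher, 4 of 4 proliferation (525 to 654 against 107 to 143 CPM) and 2 of 3 cartilage markers were lower, and 5 more lists held 1 call each. The myelinating, Schwann lineage and nerve cell body sums were also higher with no overlap, and the immature Schwann sum was lower. Their part in the rise of the 3 genes was not tested. From P14 to P24 none of the 10 was called, against 2.65% of all genes (1.51% higher, 1.14% lower). In edgeR 0 of the 10 passed by adjusted p alone, against 5.45% of all genes, and 2 had an unadjusted p under 0.05. The DESeq2 Wald test and limma-voom also called 0, with 3 genes each at an unadjusted p under 0.05. By adjusted p alone 0 passed in DESeq2 and 3 in limma-voom, all under 2-fold. From P24 to P60, 1 rose (Jag2), against 5.96% of all genes called, 2.55% higher and 3.41% lower. At any fold 1 passed by adjusted p, against 16.1%. At this step 4 of 4 proliferation markers (40.8 to 57.1 CPM against 3.79 to 5.27 CPM) and 2 of 3 cartilage markers were lower, 2 of 5 blood markers were lower and 1 higher, 1 of 6 fibroblast markers was lower, and 1 of 5 arterial and 1 of 8 nerve cell body markers were higher. Summed levels were higher at P60 with no overlap for the perineurial (520 to 807 against 995 to 1399 CPM) and endothelial lists (328 to 484 against 492 to 546 CPM). The same held for the pericyte and smooth muscle (667 to 949 against 1034 to 1127 CPM) and arterial lists (34.0 to 43.8 against 54.8 to 59.4 CPM). The myelinating, immature Schwann and blood sums were lower with no overlap. Their part in the rise of Jag2 was not tested.

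The adult nerve at P60 differed from the newborn nerve at P1 in 5 of the 10 genes. Notch2, Jag2, Dll1 and Hey2 were higher and Notch1 was lower, against 35.5% of all genes called, 20.3% higher and 15.2% lower. At any fold 8 passed by adjusted p, against 61.1%. The same number, 5, was called without the 3 libraries of steepest GC trend. The median log2 change was 0.59 over the 9 genes other than Hes5 and -0.02 over all genes. At the same step 5 of 8 endothelial (196 to 225 CPM at P1, 492 to 546 CPM at P60), 3 of 5 arterial (23.4 to 24.9 CPM against 54.8 to 59.4 CPM) and 5 of 8 pericyte and smooth muscle markers (268 to 327 CPM against 1034 to 1127 CPM) rose. So did 4 of 4 perineurial markers, from 157 to 231 CPM to 995 to 1399 CPM, and 4 of 8 markers of nerve cell bodies, from 14.5 to 32.2 CPM to 70.5 to 84.0 CPM. Proliferation markers fell in 4 of 4, from 972 to 1354 CPM to 3.79 to 5.27 CPM. Of the remaining lists, 4 of 5 myelinating and 4 of 6 fibroblast markers (with 1 lower) were higher, and 2 of 3 immature Schwann, 2 of 3 cartilage and 2 of 5 blood markers were lower, while the Schwann lineage list had 2 higher and 1 lower, the macrophage list 1 higher and the neuron progenitor list 1 lower. Their part in the changes of the Notch genes was not tested.

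**Figure D3:**
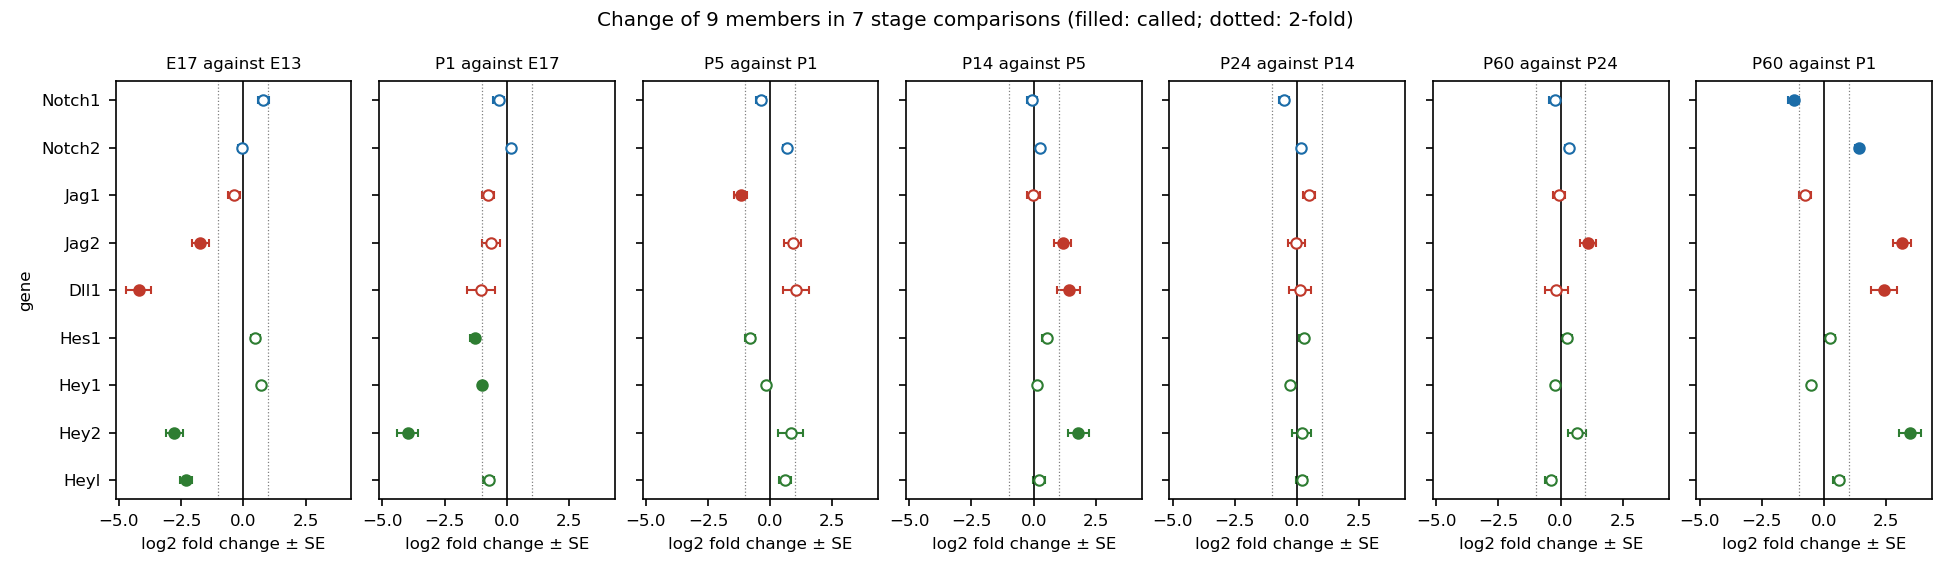
Log2 fold change ± SE of 9 of the genes (rows; Hes5, which had almost no counts after E13, is left out) in the 7 stage comparisons (panels), with filled points for called changes and dotted lines at 2-fold. The 4 filled points left of 0 at E17 against E13 are Jag2, Dll1, Hey2 and Heyl, and at P60 against P1 Notch1 lies left and Notch2, Jag2, Dll1 and Hey2 right.

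**Figure D4:**
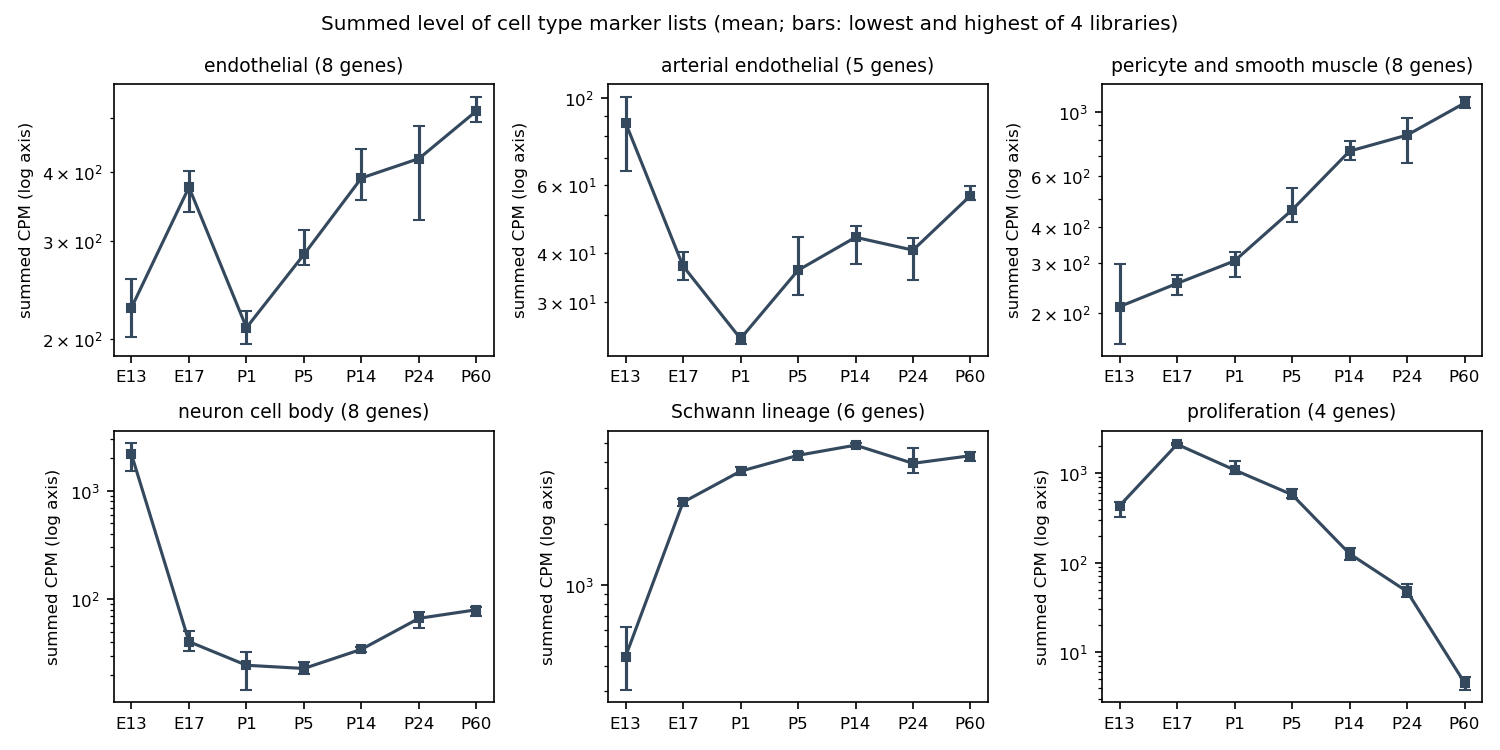
Summed level of 6 cell type marker lists by stage (CPM on log axes that differ between panels), with squares for the mean of 4 libraries and bars from the lowest to the highest library. The nerve cell body list has a mean of 2165 CPM at E13 and 40.5 CPM at E17, and the endothelial, arterial and pericyte lists stand higher at P60 than at P1.

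The tissue label could be set against the same lists. All 6 Schwann lineage markers had counts at every stage, and their sum was 304 to 620 CPM at E13 and 2435 to 2640 CPM at E17, with 6 of 6 called higher. Markers of myelinating cells summed to 154 to 300 CPM at E13 and 66627 to 85281 CPM at P60, and fibroblast markers to 538 to 917 CPM at E13 and 4111 to 5663 CPM at P60. Macrophage markers went from 299 to 379 CPM at E13 to 78.6 to 87.2 CPM at E17, cartilage markers from 74.2 to 263 CPM to 46.8 to 56.0 CPM, and blood markers from 4019 to 23917 CPM to 192 to 550 CPM.

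Summed per length, the 5 target genes reached 34.6 ± 5.56 CPM per kb (SD, n = 4) at E13, then 21.4 ± 1.3 at E17 and 9.74 ± 0.86 at P1. The sum was 8.66 ± 0.40 in P5 nerves and 10.3 ± 1.02 in P60 nerves. At E13 Heyl held 33.3% of it, Hey2 21.5%, Hey1 18%, Hes1 16.6% and Hes5 10.6%. With the longest transcript as the length, Hey2 and Heyl held 28.3% and 28.1% at E13. At E17 Hey1 held 46.8 ± 1.09% and Hes1 37.2 ± 2.03%. At P60 Hes1 held 37.4 ± 6.29%, Hey1 34.4 ± 6.92%, Heyl 21.0 ± 2.69% and Hey2 7.08 ± 0.82%.

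The other genes of the pathway were taken as a list of 55, from cleavage enzymes to corepressors, of which 52 passed the filter (Hes2, Hes3 and Hes7 did not). From E13 to E17, 5 rose and 11 fell, 16 of 52, near the background of 35.5% of all genes called (14.2% higher, 21.2% lower). Without the 3 libraries of steepest GC trend 17 were called. Among those that rose furthest were Adam17, which encodes a protease able to cut Notch, by 2.08 ± 0.17 (adjusted p = 2.5e-11), and Rbpjl, a relative of RBPJ, by 2.45 ± 0.44 (adjusted p = 2.6e-05). Rbpjl lay at 0.0994 to 1.82 CPM in these stages, differed by 2.13 without E13 replicate 1, by 3.12 without E13 replicate 2 and by 1.78 (adjusted p = 0.0015) without the 3 libraries of steepest GC trend, and shares 149 exon bases with Matn4 on the opposite strand, which had 24441 counts in all against 613 for Rbpjl, so its values are uncertain. Adam17 shares 311 exon bases with Iah1 on the opposite strand (20332 counts against 102684). The furthest falls were those of Dner, a Notch ligand of neurons, from 93.7, 70.6, 71 and 87 CPM to 0.275, 0.634, 0.621 and 0.314 CPM (adjusted p = 4.6e-14), and of Dll3, from 4.21, 5.33, 6.64 and 12.4 CPM to 0, 0.106, 0.0776 and 0.126 CPM (adjusted p = 1.3e-09). Notch3, named after its values were seen, fell by 1.09 ± 0.26 (adjusted p = 0.00074). By role, 3 of 5 further ligands, 2 of 2 further targets tested, 2 of 8 corepressors, 1 of 2 further receptors and 1 of 5 sugar transfer genes fell. Of the cleavage genes 2 of 9 rose, as did 1 of 9 genes of the nuclear complex. Of 12 ubiquitin ligases and endocytic regulators, 2 rose and 2 fell.

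Between later stages 0 to 2 of the 52 were called at a step, set against 11.7%, 5.84%, 12%, 2.65% and 5.96% of all genes at the steps in order from E17 to P60. From E17 to P1, 1 rose, Maml3, which encodes a Mastermind coactivator, by 1.12 ± 0.10 (adjusted p = 2.1e-09). From P1 to P5 none was called in edgeR, where 3 passed by adjusted p alone and 11 had an unadjusted p under 0.05, the DESeq2 Wald test also called 0, and limma-voom called 1. Rbpjl, with the same overlap, rose by 1.83 ± 0.41 (adjusted p = 0.0011) from P5 to P14. Dlk1, a Delta-like protein without the usual Notch-binding end, fell at each of the last 3 steps, by 1.22 ± 0.33 from P5 to P14 (adjusted p = 0.0062), by 1.85 ± 0.34 to P24 (adjusted p = 0.00097) and by 3.28 ± 0.41 to P60 (adjusted p = 1.7e-06). Dner rose from P24 to P60 by 2.46 ± 0.46 (adjusted p = 0.00033), to a mean of 2.28 CPM.

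From P1 to P60, 8 of the 52 rose and 5 fell, against 35.5% of all genes called, 20.3% higher and 15.2% lower. Without the 3 libraries of steepest GC trend 15 were called. Dner rose by 3.62 ± 0.49 (adjusted p = 3.7e-07) and Mfng, a sugar transferase that modifies Notch, by 2.07 ± 0.30 (adjusted p = 1.3e-06). Dlk1 fell by 6.41 ± 0.44 on the log2 scale (adjusted p = 1.2e-12), from 119, 162, 231 and 217 CPM to 1.02, 2.03, 2.24 and 3.14 CPM, and Maml3 by 1.93 ± 0.11 (adjusted p = 1.1e-14). The remaining receptors, Notch3 and Notch4, both rose, by 1.37 ± 0.26 (adjusted p = 6.8e-05) and 1.41 ± 0.21 (adjusted p = 2.3e-06). Along the timeline 33 of the 52 changed, against 70.3% of all genes.

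**Figure D5:**
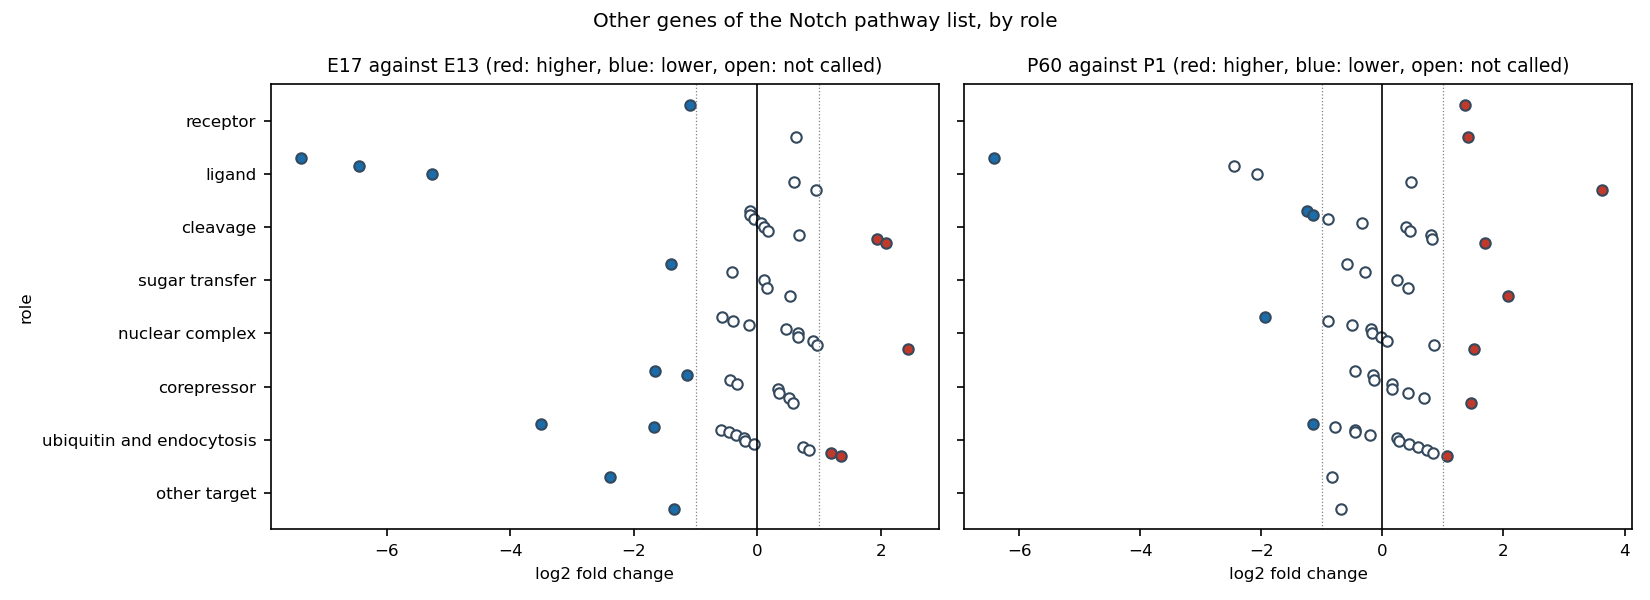
Log2 fold change of the 52 other pathway genes tested, one point a gene, in rows by role, for E17 against E13 (left) and P60 against P1 (right), with dotted lines at 2-fold. Red points are called higher (5 left, 8 right), blue points called lower (11 left, 5 right) and open points not called, and the row of ligands reaches furthest from 0 in both panels.

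For each gene the 2 most alike protein-coding genes were found by Pearson r of log2 CPM over the 28 libraries, which share stages, depth and tissue make-up. They were Megf6 (0.931) and Celsr1 (0.926) for Notch1, Idua (0.972) and Ankrd33b (0.966) for Notch2, St3gal1 (0.945) and Pcdh18 (0.94) for Jag1, Rab11fip3 (0.954) and Cystm1 (0.939) for Jag2, and Smpd3 (0.941) and Dzip1l (0.93) for Dll1. Among the targets they were Rgmb (0.904) and Cytl1 (0.901) for Hes1, Pgam1 (0.945) and Amph (0.936) for Hey1, Sulf2 (0.939) and Mcc (0.933) for Hey2, and Snap47 (0.958) and Dtx1 (0.947) for Heyl. Dtx1 is itself a Notch pathway gene on the list, but over the 24 libraries after E13 its r with Heyl was 0.694, and that of Snap47 was 0.806. For Hes5 the 2 genes were Unc119 and Samd10 (both 0.969), which came to 0.298 and 0.231 over the 24 libraries after E13. Without E13, 2 of the 20 genes chosen were the same.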

How the data were processed

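RNA was sequenced in 28 libraries of mouse nerve, 4 at each of 7 stages. Per the labels and the study's methods, the authors prepared TruSeq stranded mRNA, read it from one end on a HiSeq4000, clipped adapters and poor tails, aligned with STAR 2.6.1c and used featureCounts for gene counts. Deposited values are raw counts per gene, not normalized by the authors. The build is GRCm38.p5 in the submitters' processing notes and a human build name in the methods. Whether strand was used in counting and how reads with several alignments were treated are not given in the sources used here, so values of overlapping genes are uncertain. Of 41605 identifiers, 41519 were matched to GENCODE M21 (GRCm38), the source of symbols, coordinates and exon lengths.

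Genes were filtered with filterByExpr by stage and scaled by TMM. A single quasi-likelihood model (edgeR 4.0.16, R 4.3.3) was fitted over the 28 libraries with stage as the only term, and p-values were adjusted over 17700 genes by the Benjamini-Hochberg method. The 6 adjacent pairs and P60 against P1 were tested. SE is the log2 change over the square root of F. The code was also run on simulated counts, and the outcome of that run is not given here. Total counts of 13899895 to 37662780 limit precision for genes of few counts only. As a check for a library deposited more than once, pairs within a stage were compared, and none agreed within sampling noise (chi-square per degree of freedom 5.21 to 293 over 42 pairs).

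All 10 members were tested in each comparison, and Hes5, for want of counts, is given by its counts and adjusted p. Of the pathway list, the 2 called genes with the largest rise and the 2 with the largest fall in each comparison were named, and likeness used protein-coding genes averaging 5 CPM or more (prior count 2). Marker lists of 15 cell types are given as counts and summed CPM. The members, lists and tests were chosen with earlier results of these data known. Alternatives tried were scaling by library size only or by DESeq2 size factors, tests with limma-voom (limma 3.58.1) and DESeq2 1.42.0, other filters, the compared stages only, all stages but E13, a replicate block, a GC trend offset, no fold minimum, the longest transcript as length, another prior count and each library left out. A fit without the 3 libraries of steepest GC trend was added after their slopes were seen.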

Additional observations from a re-analysis of the deposited data

Results flagged for a closer look

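Of 69 groups of 4 libraries in which a gene had any count, 3 held a library whose gap to the nearest other exceeded Dixon's 95% critical value, and chance flags about 1 in 20 groups. Heyl stood at 31.5 CPM in E13 replicate 1 against 69.0 to 71.0 CPM in the other 3. Hes5 stood at 0.125 CPM in P5 replicate 1 (3 counts) and at 0.0731 CPM in P60 replicate 1 (1 count), and in both stages the other 3 libraries had none, so that any single count would have passed the limit and these flags carry no information. The chance rate does not apply to such groups. E13 replicate 1 also had the steepest GC slope, -0.93, and the part of this in the Heyl value was not tested.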

How the results depend on the processing

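Of the values of named genes under settings other than leaving out a library, 1006 kept direction and side of the threshold, 12 newly passed, 5 no longer passed and 8 reversed. Over libraries left out these numbers were 640, 3, 12 and 17. The setting with no fold minimum reused the main fit, so it could not reverse a direction and could only add calls. Of the 12 new passes, only Hes1, P5 against P1, with library size only (-1.01) came from a different fit. With no fold minimum the called members numbered 8 (E17 against E13), 5 (P1 against E17), 3 (P5 against P1) and 8 (P60 against P1), and the called pathway genes 36, 15, 3 and 36, with 11 for P14 against P5 and 7 for P60 against P24. Pathway calls for P1 against E17 were 2 by the DESeq2 Wald test, and for P5 against P1 they were 1 with library size only, limma-voom or without the 3 libraries of steepest GC trend. With library size only 2 members were called for P5 against P1. Leaving out 1 library gave 1 to 2 pathway calls (P1 against E17; 2 without P1 replicate 3), 1 to 2 members (P5 against P1; 2 without P1 replicate 3 or P5 replicate 4), 1 to 3 members (P14 against P5; 1 without P5 replicate 4), 1 to 2 pathway calls (P24 against P14; 2 without P24 replicate 2) and 0 to 1 members (P60 against P24).

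Only uncalled differences reversed. Jag1, P14 against P5, was 0.017 with DESeq2 size factors, 0.0035 with the 1 CPM filter, 0.018 by the DESeq2 Wald test and 0.0078 on the stages compared, and -0.099 to 0.0537 over libraries left out. With library size only, Hey1, P14 against P5, was -0.0453, Jag2, P24 against P14, 0.0402 and Jag1, P60 against P24, 0.050. Leaving out libraries, Notch2, E17 against E13, was -0.21 to 0.17 (-0.35 without the 3 libraries of steepest GC trend), and for P24 against P14 Jag2 was -0.17 to 0.0899, Dll1 -0.21 to 0.42 and Hey2 -0.0472 to 0.44. For P60 against P24 Jag1 was -0.28 to 0.12, Dll1 -0.46 to 0.17 and Hes5 -2.50 to 3.6e-05. The E13 ratio of Notch2 to Notch1 was -0.25 with the longest transcript. The cause was not tested.

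Library size only moved the median of all genes by -0.25 (E17 against E13), -0.11, -0.19, -0.17, 0.06, 0.11 and -0.19 (P60 against P1). It gave 1820 higher of 6331 called for E17 against E13 (2518 of 6276 with TMM), 967 of 2251 for P1 against E17 (1116 of 2074), 493 of 1102 for P5 against P1 (717 of 1033), 991 of 2143 for P14 against P5 (1258 of 2127), 564 of 1074 for P60 against P24 (451 of 1055) and 3100 of 6530 for P60 against P1 (3601 of 6292). Replicate numbers were not taken to pair the samples, since not every same-numbered pair correlated above 0.1. Over 84 same-numbered pairs r was -0.20 to 0.57 (median 0.084, 32 over 0.1). The highest r was between E13 replicate 1 and P1 replicate 1, whose GC slopes were -0.93 and -0.43. Of 28 libraries, 17 correlated best with their own number out of 4, a hint from the data and not from the design. With the replicate number as a block no member's call changed, and the uncalled Jag2, P24 against P14, was 0.0401. Depth limits Hes5 after E13, Dll3 and Hey2 at P1.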
